A study of Mus musculus with 2 samples.

Results

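The Schlafen genes encode a family of proteins of immune cells and are switched on by type I interferon and by bacterial products. The 7 annotated protein-coding members taken here by symbol were Slfn1, Slfn2, Slfn3, Slfn4, Slfn5, Slfn8 and Slfn9, 7 of the 55536 genes measured. They were measured in RNA from the nuclei of macrophages, primary phagocytes grown from the marrow of C57BL/6J mice, with no genetic change given in the labels. The cells had been exposed for 12 hours to Lipid A at 100 ng/ml, the part of bacterial lipopolysaccharide that the receptor TLR4 recognises, had then been kept without it for 12 hours, and were stimulated again at 100 ng/ml for 20 minutes. Total RNA depleted of ribosomal RNA was sequenced in 2 libraries of this 1 group, labelled biological replicates 1 and 2, made from 1 µg and 500 ng of RNA. Both libraries carry the same donor label and no source used here says whether they came from separate animals, so the spread between them may be partly technical. No untreated or single-dose cells were part of the group, so no change with treatment is described.

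Schlafen proteins share an N-terminal region, in some members a nuclease that cuts transfer RNA, and fall into classes by their length. The short group I proteins Slfn1 and Slfn2 hold little besides that region, the group II proteins Slfn3 and Slfn4 are of intermediate length, and the long group III proteins Slfn5, Slfn8 and Slfn9 add a C-terminal region related to helicases. In macrophages and monocytes several members rise after interferon or lipopolysaccharide, and Slfn2 is known for keeping resting T cells and monocytes quiescent.

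Depth was 21954179 expected counts in genes in replicate 1 and 17739520 in replicate 2, where an expected count is an estimated number of reads. The limit that 0 counts allow, 3 counts, was 0.137 and 0.169 CPM, or counts scaled to a common library total, and covers counting error only. The 8 macrophage markers checked, such as Adgre1 and Csf1r, had a median of 124 TPM, a level corrected for transcript length with the same total in both libraries. Of the other marker lists, 0 of 9 lymphocyte, 1 of 8 neutrophil, 1 of 6 dendritic cell and 1 of 5 stromal and endothelial genes reached a mean of 1 TPM. The summed level was 0.29 and 0.50 TPM for the lymphocyte list in replicates 1 and 2 and 2.09 and 3.24 TPM for the neutrophil list, in which Ly6g and Elane were at 0. In bulk RNA, fewer cells of a type and less RNA per cell cannot be told apart.

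All 7 genes lie in 1 cluster on chromosome 11 (mm10), which ran over 263.8 kb from the first base of Slfn5 at 82951349 to the last base of Slfn3 at 83215154. Slfn5, Slfn2, Slfn1, Slfn4 and Slfn3 are on the plus strand and Slfn9 and Slfn8 on the minus strand. Sequence from before the start of each member is shown because, among these 7 genes, 1 searched site was found in the group III members only. All 7 were matched by symbol in RefSeq promoter windows (GRCm38.p6), which run from 250 bases before to 50 after a start. Capitals mark that site, the interferon-stimulated response element core, GAAANNGAAA on either strand, in Slfn5, Slfn8 and Slfn9. In the 4 others they mark a run of 9 bases that was picked because all 4 hold it. Every line is 100 bases, read 5′ to 3′ on the strand of its gene, and ends at the last base before the RefSeq start, except that of Slfn5. The Slfn5 line runs from 220 to 121 bases before the start at 82952102, so as to hold the match, and lies inside the annotated span of the gene, whose first base belongs to the transcript Slfn5-204.
Slfn5, chr11:82951882-82951981, plus strand: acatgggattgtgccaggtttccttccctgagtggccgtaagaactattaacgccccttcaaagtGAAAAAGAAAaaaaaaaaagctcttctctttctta
Slfn8, chr11:83020811-83020910, minus strand: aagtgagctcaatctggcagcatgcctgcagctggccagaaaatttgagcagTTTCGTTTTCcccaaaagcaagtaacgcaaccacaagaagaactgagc
Slfn9, chr11:82991831-82991930, minus strand: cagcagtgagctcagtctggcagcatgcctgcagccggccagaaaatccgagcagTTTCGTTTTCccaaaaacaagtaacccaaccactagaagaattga
Slfn1, chr11:83116720-83116819, plus strand: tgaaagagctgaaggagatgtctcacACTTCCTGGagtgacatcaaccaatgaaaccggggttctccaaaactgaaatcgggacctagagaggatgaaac
Slfn2, chr11:83065012-83065111, plus strand: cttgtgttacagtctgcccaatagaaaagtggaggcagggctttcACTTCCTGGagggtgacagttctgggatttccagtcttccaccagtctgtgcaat
Slfn3, chr11:83191230-83191329, plus strand: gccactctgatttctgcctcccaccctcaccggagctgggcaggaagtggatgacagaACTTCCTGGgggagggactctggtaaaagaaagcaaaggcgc
Slfn4, chr11:83175086-83175185, plus strand: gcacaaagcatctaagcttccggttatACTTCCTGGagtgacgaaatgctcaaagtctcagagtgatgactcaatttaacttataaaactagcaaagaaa

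The interferon-stimulated response element is a DNA site found before many genes that interferon induces. Its core matched in the windows of Slfn5, Slfn8 and Slfn9 and of none of the 4 other members, against 3.44% of 32851 windows of all genes. Slfn14, a further group III gene that is not a member, had 0 matches in its window, so the split holds among the 7 members and not for group III as a whole. The match began 155 bases before the start of Slfn5, 48 before that of Slfn8 at 83020810 and 45 before that of Slfn9. Slfn8 has a further RefSeq start, at 83020722, and the same match began 136 bases before it. Slfn8 and Slfn9 held the same 10 letters, and 89.2% of the 223 bases that aligned between their 250 bases before the start were identical. In a list of 28 interferon target genes, 14 of the 22 with a window held the core. A window without the exact core may still hold a variant of the site, which was not searched for. The 9-base run of the group I and II members, ACTTCCTGG, began 74 bases before the start of Slfn1, 55 before Slfn2, 42 before Slfn3 and 73 before Slfn4. It was picked after the windows had been seen, as the longest run common to these 4 genes, was in none of Slfn5, Slfn8, Slfn9 and Slfn14, and was in 0.700% of the 32851 windows over the same 250 bases. Among the other motifs searched, the gamma-activated site TTCNNNGAA was in no member's window and in 8.30% of all windows. The ETS-type core GAGGAA was in the window of Slfn9 and in 28.3% of all. The NF-kappaB site was in the windows of Slfn1 and Slfn9 and in 4.51% of all. On its other strand the 9-base run reads CCAGGAAGT, which holds GGAA but not GAGGAA. The search for GAGGAA therefore does not show that ETS-type sites are absent from the windows of Slfn1, Slfn2, Slfn3 and Slfn4. Both strands were searched, and a match describes the letters and shows no binding.

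In deposited gene-level TPM, all 7 Schlafen genes were present at 10 TPM or more in the nuclear RNA. A mean of 1 TPM was reached by 7 of 7 members and by 23.3% of all 55536 genes, and a mean of 10 TPM by 7 of 7 members and 9.07% of all genes. Slfn4, Slfn2, Slfn8 and Slfn5 were above 100 TPM. The members' median of 143 TPM stood beside a median of 6.94 TPM over the 12952 genes at a mean of 1 TPM or more. Together the 7 genes took 0.483% of all gene counts in replicate 1 and 0.289% in replicate 2. The 95% Wilson intervals were 0.480% to 0.486% and 0.286% to 0.291%, so the share differed between the libraries by more than counting error. A further deposited transcript table, made from the reads directly, gave lower levels. Its means were 113 TPM for Slfn2, 107 for Slfn4, 69.7 for Slfn5 and 62.0 for Slfn8, and the lowest was 10.5 for Slfn9. In replicate 1 it put Slfn3 at 8.12 TPM and Slfn9 at 7.35 TPM.

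The group I genes were the short Slfn2 and Slfn1. Slfn2, the quiescence factor, was at 294.75 TPM in replicate 1 and 275.76 TPM in replicate 2, a mean level of 285 ± 13.4 TPM (SD, n = 2). These levels rest on 12803 and 8164 expected counts, and Slfn2 was 140th of all genes by mean TPM. Slfn1, the founding member, first described as a brake on the growth of T cells, was at 53.38 and 34.12 TPM, a mean of 43.8 ± 13.6 TPM (SD, n = 2), from 2638 and 1150 counts. Slfn1 was the lower of the pair in both libraries, and its 2 values lay further apart in proportion than those of Slfn2.

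The group II genes were Slfn4 and Slfn3, whose coding sequences are near copies of each other. Slfn4, a gene of the myeloid lineage that is induced in macrophages by interferon and Toll-like receptor ligands, was at 447.51 TPM in replicate 1 and 198.59 TPM in replicate 2. Its mean level of 323 ± 176 TPM (SD, n = 2) was the highest of the family and the 130th of all genes, and its spread was the widest. It held 48535 counts in replicate 1 and 14953 in replicate 2. Slfn3, studied in T cells and in the intestinal epithelium, was at 28.64 and 30.13 TPM, a mean of 29.4 ± 1.05 TPM (SD, n = 2), from 1518 and 1072 counts. So the 2 near-copies stood apart in level in both libraries, and in deposited gene-level TPM Slfn4 was lower and Slfn3 higher in replicate 2. In the transcript table made from the reads directly, Slfn4 was at 106.5 and 107.7 TPM and Slfn3 at 8.12 and 21.6 TPM.

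The group III genes were Slfn8, Slfn5 and Slfn9. Slfn8 was at 159.48 and 142.91 TPM (mean level 151 ± 11.7 TPM, SD, n = 2), from 15431 and 9286 counts. Slfn5, a long member whose protein is found in the nucleus, was at 141.13 and 144.78 TPM (mean level 143 ± 2.58 TPM, SD, n = 2), from 21737 and 14889 counts. These 2 long genes had close levels in both libraries. Slfn9, the closest relative of Slfn8, was at 22.93 and 16.36 TPM (mean level 19.6 ± 4.65 TPM, SD, n = 2), from 3373 and 1745 counts, and was the lowest of the 7 members in both libraries. It was still above 77.9% of the 12952 genes at 1 TPM or more, while Slfn4 was above 99.0% of them.

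**Figure D1:**
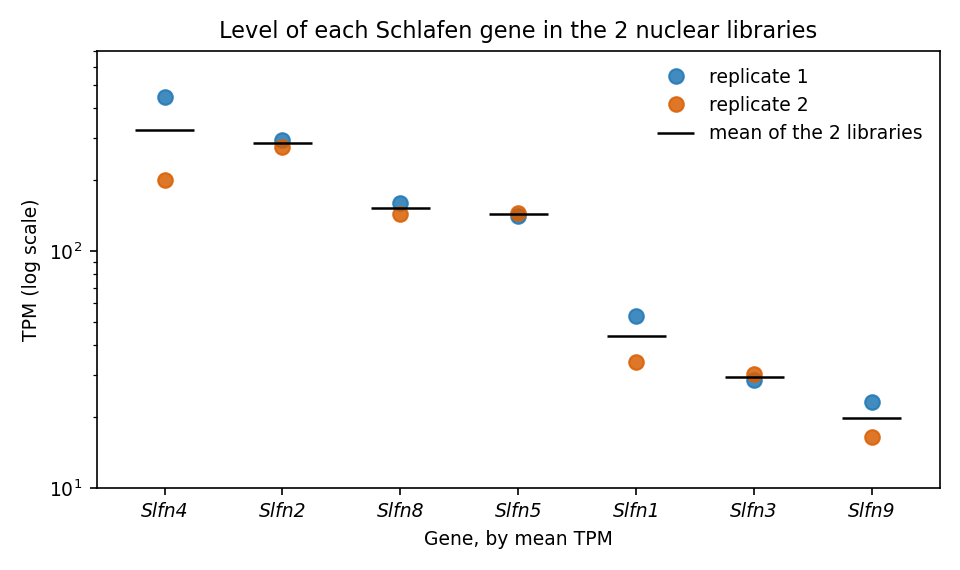
The level of each of the 7 Schlafen genes in TPM on a log axis, with 1 point for each library and a line at their mean. The points of Slfn4 lie at 447.51 and 198.59 TPM on both sides of Slfn2, Slfn8 and Slfn5 overlap near 150 TPM, and Slfn9 is lowest.

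By mean TPM the order was Slfn4, Slfn2, Slfn8, Slfn5, Slfn1, Slfn3 and Slfn9. Slfn4 and Slfn2 were not separated beyond their spread, since Slfn4 was 1.52 times the level of Slfn2 in replicate 1 and 0.720 times in replicate 2. Slfn8 and Slfn5 were not separated either, at 1.13 and 0.987 times. The other neighbours did not overlap: Slfn2 was 1.85 and 1.93 times Slfn8, Slfn5 was 2.64 and 4.24 times Slfn1, Slfn1 was 1.86 and 1.13 times Slfn3, and Slfn3 was 1.25 and 1.84 times Slfn9. With 2 libraries no test of these differences was made. The transcript table made from the reads directly gave the same order of the 7 genes in replicate 1. In replicate 2 it gave the same order except that Slfn3 was above Slfn1, at 21.6 and 18.5 TPM.

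The share of each class in the summed level of the family moved with the library. Group II took 41.5% of the family's 1148 TPM in replicate 1 and 27.1% of its 843 TPM in replicate 2. Group I took 30.3% and 36.8%, and group III took 28.2% and 36.1%. The summed level of group II was 476 and 229 TPM, nearly all of it Slfn4, while that of group III was 324 and 304 TPM and that of group I 348 and 310 TPM.

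The difference between the libraries was taken as log2 of TPM plus 1 in replicate 2 over replicate 1, less 0.29, its median over the 12952 genes at a mean of 1 TPM or more. On this scale all 7 members were lower in replicate 2, where 50% of all such genes were lower by the way the scale is built. Slfn4 was lower by 1.46, a 2.75-fold difference relative to the median gene, and was the 1 member of 7 past 2-fold. Past 2-fold in either direction were 7.29% of all genes, past 2-fold lower in replicate 2 were 4.51%, and 4.71% of the genes at a mean of 10 TPM or more were past 2-fold lower. Slfn1 was at -0.92, Slfn9 at -0.75, Slfn8 at -0.45, Slfn2 at -0.38, Slfn5 at -0.25 and Slfn3 at -0.22, a median of -0.45 over the 7 members beside 0 over all genes. No test was possible between single libraries, and replicate and RNA input cannot be told apart.

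Without the subtraction of the median, Slfn3 (0.07) and Slfn5 (0.04) were higher in replicate 2 and 5 members were lower. From the directly made transcript table, after the same subtraction, 6 were lower and Slfn3 was at 0.03. Slfn4 stayed past 2-fold in both, at -1.17 and -1.26. For the directly made table this rested on the subtraction, whose median was 1.28 (log2). Its TPM before that was 106.5 and 107.7 for Slfn4, and no member was lower in replicate 2.

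Other interferon-responsive genes moved with the Schlafen genes, and their part in the result was not tested. In the list of 28 interferon targets, 26 were lower in replicate 2, 9 were past 2-fold lower, and the median difference was -0.56. In the list of 14 genes of interferon signalling, 13 were lower, 4 were past 2-fold lower, and the median was -0.69. The difference of Slfn4 was more negative than that of 23 of the 28 targets, while Slfn3 and Slfn5 each lay above 22 of them. When the scale was set to 0 at the median of the interferon targets in place of the median gene, a setting chosen after seeing the data, 3 of the 7 members were lower, none was past 2-fold, the members' median was 0.11 and Slfn4 was at -0.90. The macrophage markers had a median difference of -0.16, with 4 of 8 lower.

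**Figure D2:**
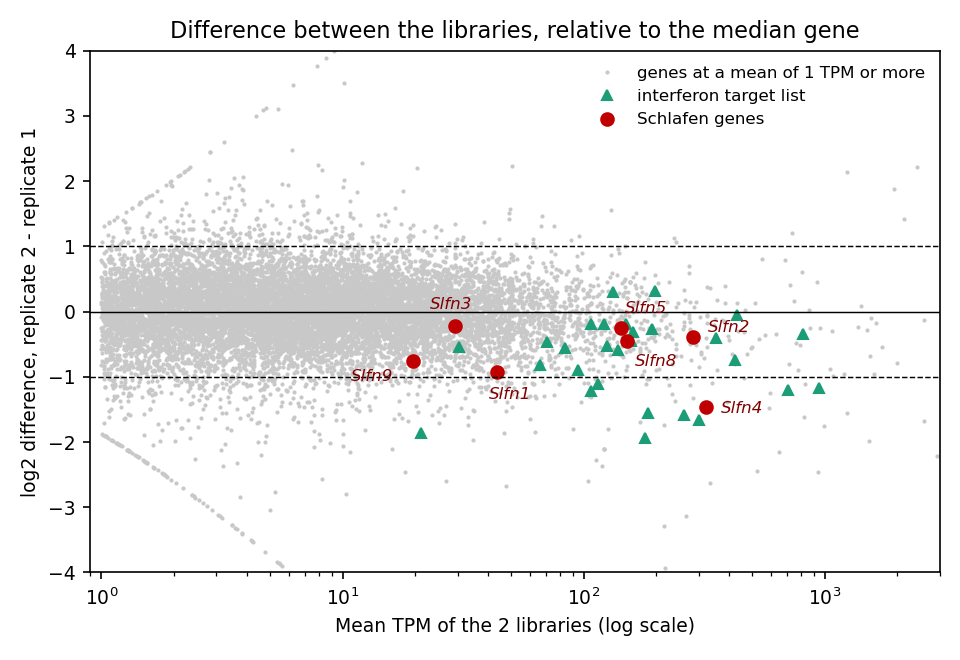
The log2 difference between the libraries (replicate 2 less replicate 1, relative to the median gene) against mean TPM on a log axis, for all genes at a mean of 1 TPM or more, with the 7 Schlafen genes and 28 interferon targets marked. Dashed lines mark 2-fold, 103 genes lie outside the axes, and Slfn4 at -1.46 is the Schlafen gene past the lower line.

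In level, the Schlafen genes were spread through the range of the interferon targets. All 28 targets were at 10 TPM or more, with a median of 153 TPM, from Isg20, an exonuclease, at 21.2 ± 15.7 TPM and Phf11b at 30.4 ± 3.995 TPM to Ifit2 at 814 ± 19.9 TPM and Rsad2, the antiviral enzyme viperin, at 948 ± 397 TPM (SD, n = 2). Slfn4 was above 22 of the 28 targets, Slfn2 above 21, Slfn8 above 14, Slfn5 above 13, Slfn1 above 2, Slfn3 above 1 and Slfn9 above 0. The 3 lower members thus stood at or near the bottom of that list, and the 4 higher ones in its middle and upper part. Of the signalling genes, the transcription factor Irf7 (392 ± 202 TPM) was the highest, and the cytokine gene Ifnb1 (3.90 ± 2.40 TPM) and the inhibitor Socs1 (4.87 ± 3.84 TPM) were the lowest (SD, n = 2). All 14 were at 1 TPM or more, with a median of 48.7 TPM.

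The cluster also held 15 annotated genes that are not among the 7 members. Of these, 5 reached a mean of 1 TPM and 8 had 0 counts in both libraries. Slfn10-ps, a transcribed pseudogene of the group III type between Slfn8 and Slfn2, was at 36.29 and 36.86 TPM from 3701 and 2459 counts, a level above Slfn3 and Slfn9 in both libraries. The processed pseudogene Gm11425 next to it was at 29.41 and 21.13 TPM, and the processed pseudogene Gm48434 at 0.84 and 3.58 TPM from 8 and 23 counts. The lincRNA 1190001M18Rik between Slfn5 and Slfn9 was at 0.41 and 0.14 TPM, and the pseudogene Gm48467 had 3 and 0 counts. Those listed at 0 were Gm11424, Mir7679, Gm27598, Gm48462, Gm48468, Gm48469, Gm48477 and Gm48490.

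The remaining 2 genes at a mean of 1 TPM or more are antisense to members. Gm20234 overlaps Slfn2 over 4927 bases and was at 17.61 and 14.58 TPM from 266 and 149 counts. The directly made table gave it 2559 and 2613 counts, so its level differed widely between the 2 kinds of table. The cause was not tested. Slfn5os overlaps Slfn5 over 9333 bases and had 17.0 and 3.91 counts, against 129 and 62.9 in the other table. The microRNA gene Mir7679 inside Slfn9 was listed at 0 in both libraries, against 124 and 65 counts in the other table. No source used here gives the strand setting, so reads of these overlapping genes may not be separated. In the alignment-based counts the antisense genes came to little beside 12803 for Slfn2 and 21737 for Slfn5 in replicate 1. In the directly made table Slfn2 held 14519 and 12108 counts, beside which the 2559 and 2613 of Gm20234 were not small.

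The family's remaining relatives were close to absent. Slfn14, a group III gene of the platelet and red cell lineage that lies beyond Slfn3, had 1 and 0 counts, and the Schlafen-like gene Slfnl1 on chromosome 4 had 1 and 16. In both libraries Slfn14 was under the 3 counts that a 0 allows.

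The flanks of the cluster held genes of lower and of similar level. Within 100 kb on either side, 9 of 14 genes reached a mean of 1 TPM. On the Slfn5 side Rffl, the DNA repair gene Rad51d and Nle1 were at 2.84 ± 0.622, 3.28 ± 0.544 and 3.20 ± 1.83 TPM (SD, n = 2), all under the lowest Schlafen member. On the Slfn3 side the transcript AI662270 was at 34.39 and 54.77 TPM, the pseudogene Gm11427 at 28.39 and 27.14 TPM, AA465934 at 3.61 and 1.14 TPM, and the adaptor gene Ap2b1 at 20.71 and 24.25 TPM. Gm11427 shares sequence with Slfn3 and Slfn4, in which 10.8% and 8.72% of the 31-base words are also found in it. The small nuclear RNA gene Gm23444 was listed at 6829 and 8890 TPM, but its counts of 3571 and 2471 had a posterior SD of 1005 and 1105, so that level is loosely determined.

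**Figure D3:**
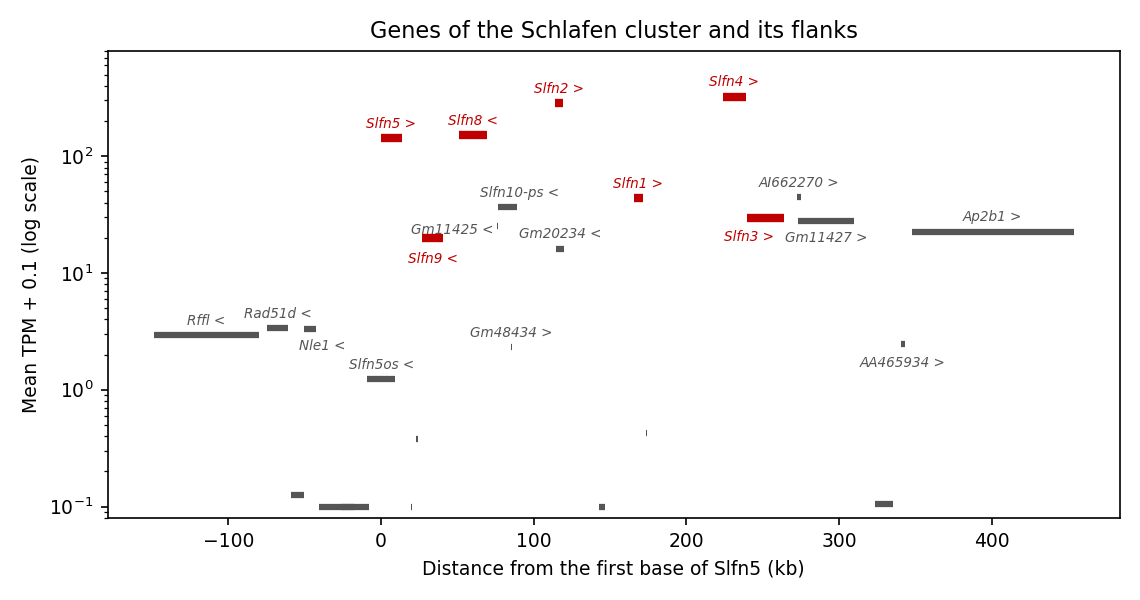
Mean TPM plus 0.1 (log axis) of the genes of the Schlafen cluster and its flanks against distance from the first base of Slfn5 in kb, each bar spanning its gene and pointing by > or < to its strand. Members are in red, the small nuclear RNA gene and 1 flanking gene are left out, and Slfn5, Slfn8, Slfn2 and Slfn4 stand above 100 TPM.

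The members are paralogs, and the sequence they share bears on how reads were split. The coding sequences of Slfn3 and Slfn4 were 94.8% identical over 1649 aligned bases, and those of Slfn8 and Slfn9 92.7% identical over 2730 bases. Slfn2 was 76.6% identical to Slfn1 and 79.9% to Slfn4, and Slfn5 was 73.2% identical to Slfn8 over 1455 bases. Between a group I or II gene and a group III gene, a local alignment covered at most 9.08% of the shorter coding sequence.

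Of the 31-base words in the transcripts of a member, 30.9% for Slfn3, 27.3% for Slfn8, 24.6% for Slfn9, 20.9% for Slfn4, 13.4% for Slfn5, 10.8% for Slfn2 and 1.96% for Slfn1 also occurred in another annotated gene. Slfn4 held 15.1% of the words of Slfn3, and Slfn3 held 12.9% of those of Slfn4. Slfn9 held 19.1% and Slfn10-ps 18.7% of the words of Slfn8. Slfn5 shared its words mostly with its antisense gene Slfn5os, at 7.99%, and Slfn1 was the member with the largest share of words of its own, at 98.04%. The deposited posterior SD of the gene counts was at most 4.05 for any member, and the directly made table gave each of the 7 genes more counts, from 1.08 times for Slfn4 in replicate 1 to 2.20 times for Slfn9 in replicate 2. That table held 1.37 and 1.77 times as many counts over all genes, a ratio that Slfn9 passed in replicate 1 and Slfn3 and Slfn9 in replicate 2.

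**Figure D4:**
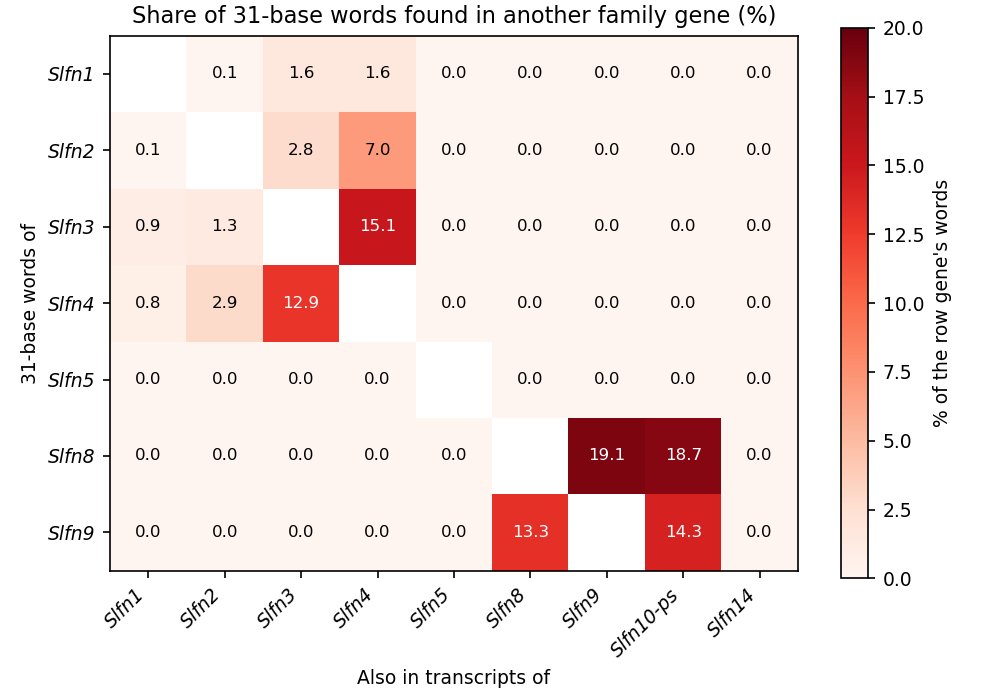
The share, in percent, of the 31-base words of each member's transcripts (rows) that also occur in another gene of the family (columns). Slfn3 with Slfn4 (15.1 and 12.9%) and Slfn8 with Slfn9 and Slfn10-ps (13.3 to 19.1%) form separate blocks, and no words are shared between them.

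The 7 members have 21 annotated transcripts, of which 18 reached 1 TPM in either library. Slfn1 and Slfn2 have 1 transcript each. In the other 5 genes the same transcript led in both libraries, as in 75% of the 9808 genes with several transcripts at a mean of 1 TPM or more. The directly made table put the same transcripts first.

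Slfn4 was the member with the largest move in transcript shares. Slfn4-201 made up 63.29% of the gene's TPM in replicate 1 and 82.71% in replicate 2, and Slfn4-202 made up 35.25% and 16.32%. The first held 31743 and 12577 counts, 2.52 times as many in replicate 1, and the second 16475 and 2312, 7.13 times as many. Both encode the same 1806 coding bases, so the move was in sequence outside the protein. Slfn4-201 has an exon of 86 bases (chr11:83175828-83175913, plus strand, noncoding) that Slfn4-202 lacks, and a longer last exon of 1554 against 1387 bases. The transcripts have few words of their own, 130 of 3928 for Slfn4-201 and 35 of 3673 for Slfn4-202, and the posterior SD of their counts was 490 and 484 in replicate 1. The directly made table gave Slfn4-202 40.8% and 24.0%, a move in the same direction. Slfn4-203, with a short coding sequence of 627 bases, was at 6.55 and 1.93 TPM.

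Slfn3 moved the same way as Slfn4 in its first 2 transcripts. Slfn3-201, of 1551 coding bases, made up 57.0% and 71.65% of the gene's TPM. Slfn3-202, which begins its 1920 coding bases in the first exon and has an added exon of 167 bases, made up 31.12% and 17.19%. The noncoding Slfn3-203 stayed at 11.89% and 11.16%. The counts behind these shares are low, from 783 and 706 for Slfn3-201 to 267 and 180 for Slfn3-203.

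The long coding sequences of the group III genes each include an exon of the same length, at a separate position in each gene. A coding exon of 724 bases is present in Slfn5-201, Slfn8-201 and Slfn9-201, at chr11:82960005-82960728 (plus strand), chr11:83004057-83004780 and chr11:82982154-82982877 (both minus strand). Slfn5-201, with 2652 coding bases, made up 85.98% and 83.76% of the gene's TPM. Slfn5-203, an annotation that stops 8 bases into that exon while still coding, holds 1134 coding bases and made up 11.62% and 14.64%. Slfn5-202, which has the full coding sequence and another start, made up 2.40% and 1.59%. The directly made table gave Slfn5-202 16.0% and 10.7% and Slfn5-201 64.8% and 70.7%, so the share of the transcript with the other start rests on how the reads were divided. Slfn5-204 was listed at 0, and had 5 and 3.01 counts in the directly made table.

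By the deposited isoform percent, Slfn8 had the most divided message of the family. Slfn8-201, with 2730 coding bases, made up 49.12% and 43.98% of the gene's TPM. Slfn8-206 made up 21.03% and 25.40%, Slfn8-203 10.94% and 12.12%, Slfn8-204 10.35% and 10.21%, and Slfn8-202 8.56% and 8.29%. Of these, Slfn8-204 is an annotation that stops 3 bases into the last exon while still coding. The 2 transcripts without the 724-base exon, Slfn8-203 and Slfn8-206, encode 1221 bases and together made up 31.97% and 37.52%. The directly made table gave these 2 together 14.3% and 22.6%, with Slfn8-206 at 0. It gave Slfn8-201 59.3% and 56.5%, beside 52.4% and 64.4% for Slfn3-201 and 58.6% and 75.6% for Slfn4-201. By its leading share, Slfn8 was thus not the most divided there in replicate 1. Slfn8-206, Slfn8-203 and Slfn8-202 have none of their 2900, 3053 and 3499 words to themselves, and Slfn8-201 has 28 of 3981. Their shares thus rest on how the reads were divided. The share of the short forms of Slfn8 is known here only within these limits. No annotated Slfn9 transcript lacks the 724-base exon.

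Slfn9-201, with 2730 coding bases, made up 81.51% and 90.60% of the Slfn9 TPM. Slfn9-203, an annotation that stops 3 bases into the last exon, made up 16.69% and 9.40%, from 219 and 60.1 counts. Slfn9-202 had 45.1 and 0 counts and stayed under 1 TPM. The leading transcripts of Slfn5, Slfn8 and Slfn9 thus encode the long form with the 724-base exon.

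**Figure D5:**
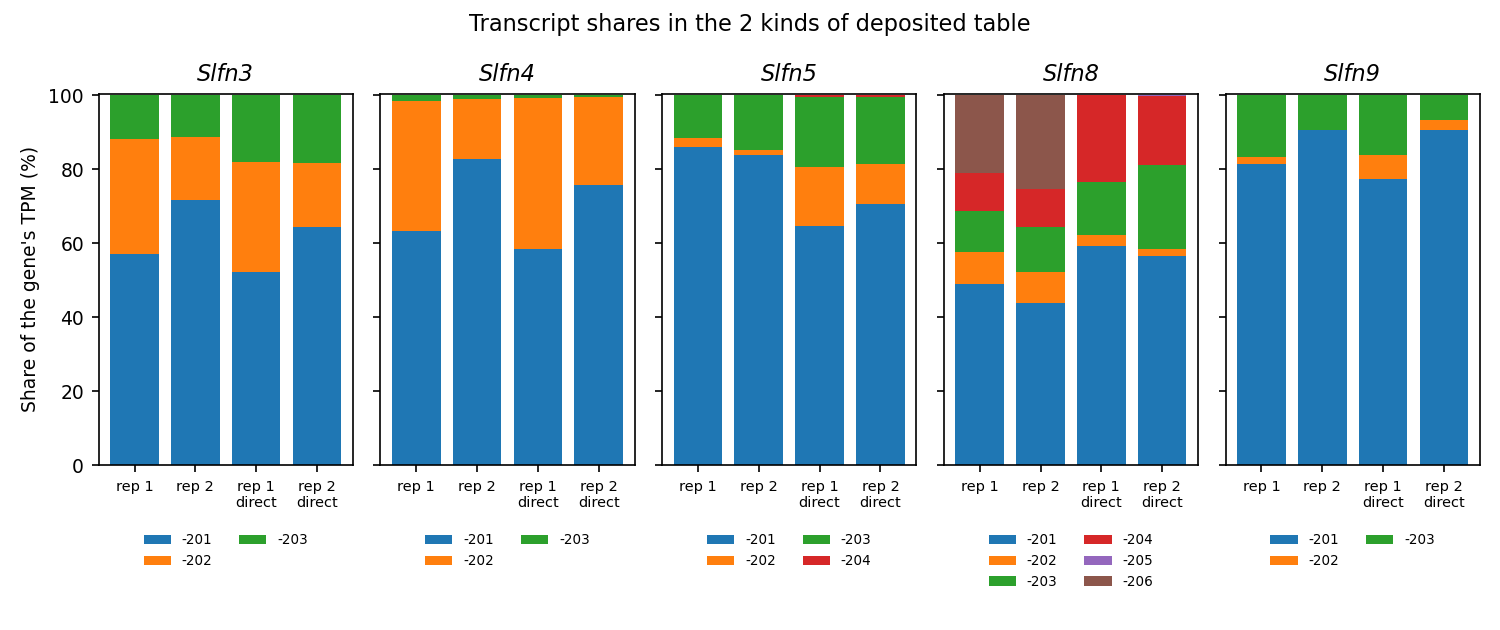
The share of each transcript in the TPM of its gene (percent, stacked bars) for the 5 members with several transcripts, in each library, from the alignment-based table (rep 1, rep 2) and the table made from the reads directly. Slfn4-202 is at 35.25% and 16.32% and Slfn8-206 is at 0 in the direct table.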

How the data were processed

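Both libraries were processed by the authors on mm10 with GENCODE M21, per the text deposited with the samples. The authors deposited expected counts (read estimates, with fractions) and TPM per gene and transcript from a transcriptome alignment, per the file headers. The deposited isoform percent is a transcript's share in its gene's TPM, and the deposited posterior SD (an "other" unit) gives the spread of a count estimate, per the file headers. A further deposited transcript table holds estimated counts and TPM made from the reads directly. Aligner, quantifiers and use of strand: not given in the sources used here. Entries without a gene name (26345, with 128385 and 77337 counts) stayed out.

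Levels are the mean and SD of deposited TPM. Differences use a pseudocount of 1 and subtract the median over genes at a mean of 1 TPM or more. The calculation was tested on simulated data. A chi-square test of counts over 14347 genes gave 91.3 per degree of freedom, so the libraries differ by more than sampling noise. The sequences are from RefSeq and GENCODE. Coding sequences were aligned locally in place of the planned comparison of proteins. TMM factors came from edgeR 4.0.16 (R 4.3.3), and all else from biopython 1.88, matplotlib 3.10.9, scipy 1.17.1, pandas 2.3.3 and numpy 2.4.6 under Python 3.11.15.

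Named were all members, other Slfn genes, genes inside the cluster, those within 100 kb at 1 TPM, member transcripts at 10% or 1 TPM, and the 2 highest and 2 lowest genes of each interferon list. Some of these are not reported here. Members and lists were chosen with earlier results of these data known. Alternatives were other pseudocounts, scalings, filters, tables and centrings, and leaving out each replicate.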

Additional observations from a re-analysis of the deposited data

How the results depend on the processing

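All 7 members stayed at 1 TPM or more and kept their leading transcripts under every other setting run for these values, and 5 to 7 were lower in replicate 2, except with centring on the interferon targets. The order by level kept 3 of 7 places by the mean of both libraries in the transcript table made from the reads directly, whose TPM was higher in replicate 2 by a median of 1.28 (log2), though within a library it changed only Slfn1 and Slfn3 in replicate 2. It kept 2 of 7 in counts not divided by length, and 3 to 7 of 7 when either replicate was left out. With TMM-scaled counts 2 members were past 2-fold, as Slfn1 reached -1.01. Centred on the interferon targets, an alternative chosen after seeing the data, 3 members were lower, 0 were past 2-fold and the median difference was 0.11, the opposite sign. The cause was not tested. With the other settings the median difference ranged from -0.56 to -0.16. No paired analysis was possible because there was 1 group. A pair of libraries allows no test. Values of short or overlapping genes and of transcripts with few words of their own may be limited by read assignment, by low counts or by both. These limits were not tested apart.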
